A study of Mus musculus with 8 samples.

Results

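The genes described here carry inhibitory transmission and chloride transport in the nervous system: *Gad1*, *Gad2*, *Slc32a1*, *Slc6a5*, *Slc6a9*, *Slc6a11*, *Abat*, *Slc12a2* and *Slc12a5*. They were chosen by name, and each was represented by the transcript cluster that carried its symbol alone in the platform annotation. Where several clusters carried the symbol, that with the highest mean over the 8 arrays was used. All 9 genes had such a cluster, among 30176 symbols in all. Whole spinal cords of E14.5 mouse embryos on a C57Bl/6J background were profiled on 8 Affymetrix Mouse Transcriptome Arrays. The 4 *Nfix*-/- arrays came from embryos lacking the transcription factor NFIX, and the 4 *Nfix*+/+ arrays from wild-type littermates of heterozygous matings. The loss was not restricted to a tissue, and the cords were not sorted into cell types. In such bulk tissue fewer cells of a type and less RNA per cell cannot be told apart.

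GABA and glycine are the fast inhibitory transmitters of the spinal cord. GABA is made from glutamate by glutamate decarboxylases, loaded with glycine into synaptic vesicles by a shared transporter, cleared by transporters of the plasma membrane and broken down by a transaminase. Both transmitters open chloride channels, so their effect on a neuron depends on its chloride content. The importer NKCC1 raises chloride in immature neurons, and the exporter KCC2 lowers it as they mature.

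The deleted gene had means of 8.86 ± 0.0427 in *Nfix*-/- cords and 9.25 ± 0.0839 in wild-type cords on the log2 scale of the deposited values (SD, n = 4 each). Differences below are *Nfix*-/- minus wild-type on that scale. That of *Nfix* was -0.39 with a standard error of 0.0544 (limma, adjusted p = 0.0024), and the groups did not overlap. All 13 neuronal marker genes measured exceeded the 95th percentile of negative-control probe sets on all 8 arrays, as did 8 of 11 markers of neural progenitors and radial glia. This percentile, 7.30 to 7.49 in *Nfix*-/- and 7.27 to 7.59 in wild-type arrays, served as the level of background. The array of wild-type replicate 2 had the highest negative-control median of its genotype, 4.88 (others 4.33 to 4.49), and *Nfix*-/- replicate 4 that of its own, 4.60 (others 4.34 to 4.40). Without these 2 arrays none of the 9 genes below was called. Several marker lists held calls, beside 11.5% higher among all clusters. Higher in *Nfix*-/- cords were 4 of 11 meningeal and fibroblast genes, 3 of 8 skeletal muscle genes (*Myl1*, *Tnnt1* and *Tnnc2*) and 2 of 8 endothelial genes. So were 3 of 13 neuronal genes (*Nefl*, *Nefm* and *Gap43*), 1 of 8 microglial genes (*C1qc*) and 1 of 6 oligodendrocyte lineage genes (*Ugt8a*). The 3 muscle genes, *C1qc*, *Ugt8a*, *Prrx1* of the meningeal and *Emcn* of the endothelial list lay below background on every array. The progenitor gene *Hes5* was lower at -0.46 (adjusted p = 0.00322), the single marker called lower. None of 7 sensory ganglion genes passed, but all 7 differences were positive with a median of 0.29, and the mean of that list was 8.44 to 8.58 in *Nfix*-/- and 7.95 to 8.52 in wild-type arrays. The mean of the muscle genes was 6.47 to 7.12 in *Nfix*-/- and 6.13 to 6.71 in wild-type arrays. None of 7 astrocyte and 4 red blood cell genes was called. After cyclic loess, a scaling that makes arrays alike at each level of brightness, 3 meningeal, 1 muscle and 2 endothelial genes were still higher. No neuronal, microglial or oligodendrocyte lineage gene was higher after it, and *Hes5* and *Olig2* were lower.

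Of the 9 genes *Slc12a2* was the single call, and no fold change reached 1.5. All 9 lay above background on all 8 arrays. Their log2 differences ran from -0.11 to 0.17, with a median of 0.077, and 7 were positive. The median was 0.025 over all 65956 clusters tested and 0.09 over the 11778 clusters above background on at least 4 arrays, called bright clusters here. At an adjusted p under 0.05 from limma, 1 of the 9 was higher and none was lower. Of all clusters 11.5% were higher and 10.5% lower by this rule. Among the 9645 clusters above background on all 8 arrays, as these genes were, 14.1% were higher and 0.342% lower. At an unadjusted p under 0.05, 3 genes were higher and none was lower. The share of all clusters by this rule is not given here, so the count alone shows no lean of these genes. None of the 9 reached a fold change of 1.5, a limit passed together with the adjusted p by 0.791% of clusters upwards and 1.26% downwards. In 3 genes every *Nfix*-/- array lay above every wild-type array, beside 28.7% of the clusters above background on all 8 arrays and 16.1% of all clusters. In none did every *Nfix*-/- array lie below every wild-type array, beside 0.985% and 12.0%.

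**Figure D1:**
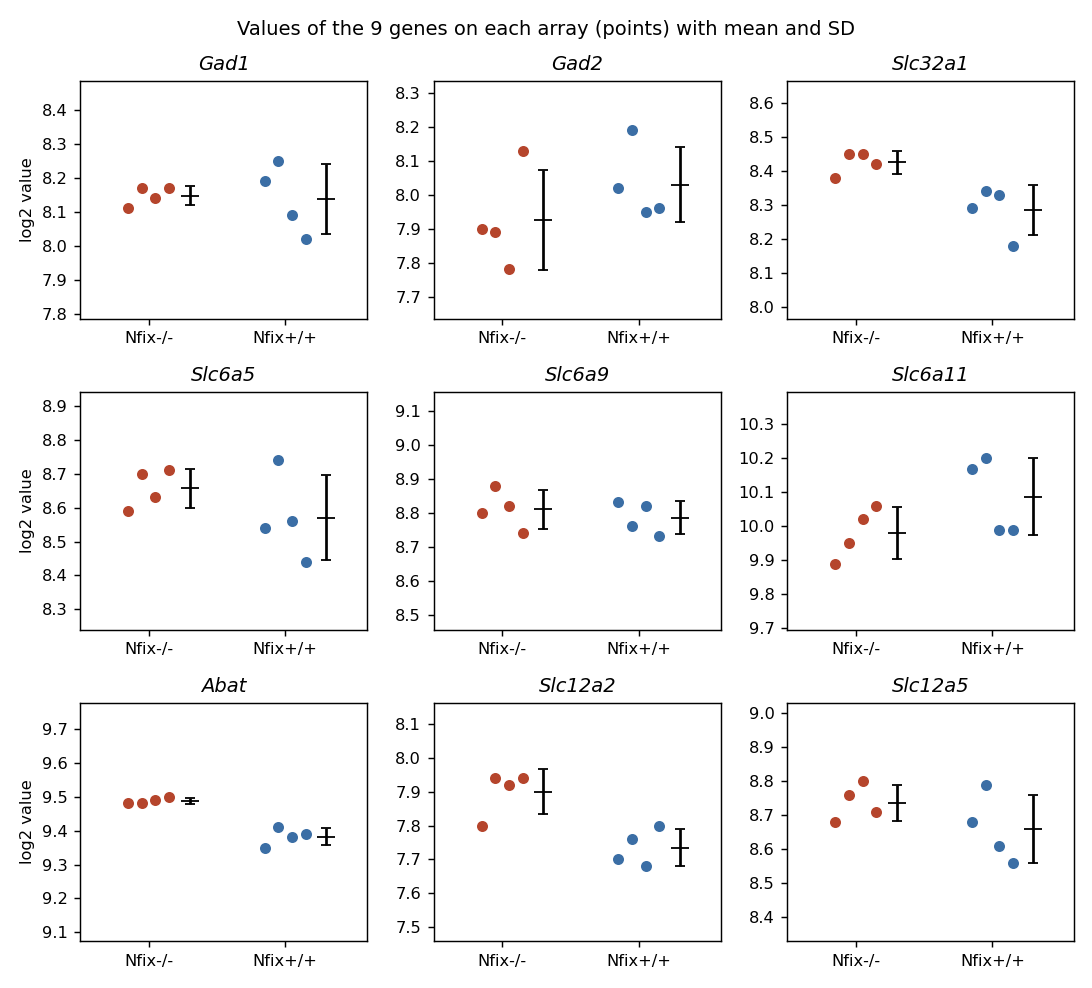
Deposited log2 values of the 9 genes, with *Nfix*-/- arrays on the left and wild-type (*Nfix*+/+) arrays on the right of each panel; points are arrays in the order of their replicate number, bars the mean and SD of 4 arrays, and every vertical axis spans the same range of log2 units. The groups do not overlap for *Slc32a1*, *Abat* and *Slc12a2*, and overlap for the other 6 genes.

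The glutamate decarboxylases were not called. *Gad1* (TC0200001023.mm.1, chromosome 2, 70561303 to 70602014 of GRCm38.p6) encodes GAD67, which makes most of the GABA of neurons. Positions given here beside a cluster are those of the RefSeq gene, not of the cluster's probes. Its log2 values were 8.11, 8.17, 8.14 and 8.17 in *Nfix*-/- cords, against 8.19, 8.25, 8.09 and 8.02 in wild-type cords. The *Nfix*-/- arrays all lay inside the wild-type range. For *Gad1* the log2 difference was 0.012 (95% confidence interval -0.12 to 0.15, adjusted p = 0.912), which is 0.918 to 1.11 of the wild-type signal. With 1 array left out it ran from -0.029 (without wild-type replicate 4) to 0.051 (without wild-type replicate 2). *Gad2* (TC0200000347.mm.1, chromosome 2, 22621015 to 22693877) encodes GAD65, the isoform held at nerve terminals. It had 7.90, 7.89, 7.78 and 8.13 in *Nfix*-/- cords, against 8.02, 8.19, 7.95 and 7.96 in wild-type cords. *Nfix*-/- replicates 1 to 3 were below all wild-type arrays, and *Nfix*-/- replicate 4 was above 3 of the 4 wild-type arrays. *Gad2* thus differed by -0.11 on the log2 scale (interval -0.31 to 0.089, adjusted p = 0.403). It was -0.18 without *Nfix*-/- replicate 4 (adjusted p = 0.126), -0.06 without *Nfix*-/- replicate 3 (0.688) and -0.056 without wild-type replicate 2 (0.653). At its spread a difference of 0.28 would have been needed to pass the adjusted p, the widest margin of the 9 genes.

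*Slc32a1* (TC0200002437.mm.1, chromosome 2, 158607260 to 158615747) encodes VGAT, the vesicular transporter that loads both GABA and glycine. Its log2 values were 8.38, 8.45, 8.45 and 8.42 in *Nfix*-/- cords, against 8.29, 8.34, 8.33 and 8.18 in wild-type cords. The groups were separated by 0.0466 (exact permutation test, two-sided, p = 0.0286, the lowest possible with 4 against 4). Its log2 difference of 0.14 (interval 0.03 to 0.26) did not pass over all clusters (adjusted p = 0.0718). It passed when dim or unnamed clusters were not tested (adjusted p = 0.0439 and 0.0451), with a trended and robust prior (0.0415) and with array weights (0.034). After cyclic loess, which makes the arrays alike at each level of brightness, the difference was 0.051 (adjusted p = 0.54).

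The start regions of the genes that make, load and recover the inhibitory transmitters at neurons are shown because NFI proteins bind DNA through the core TTGGC. RefSeq windows of 250 bases before to 50 after a start site (GRCm38.p6) matched 7 of the 9 genes, in 11 windows. The core, read as TTGGC or on the other strand as GCCAA, stood in 6 of these 11 windows (54.5%), beside 46.7% of all 32851 windows of the table. The palindromic full site, TTGGC and GCCAA with 5 bases of any kind between them, was in none of the 11 and in 0.0365% of all. Capitals mark the core in the 4 windows below, for *Gad1* (chr2:70561879-70562178, plus strand), *Gad2* (chr2:22622077-22622376, plus strand), *Slc32a1* (chr2:158610508-158610807, plus strand) and the first window of *Slc6a5* (chr7:49910049-49910348, plus strand):
Gad1: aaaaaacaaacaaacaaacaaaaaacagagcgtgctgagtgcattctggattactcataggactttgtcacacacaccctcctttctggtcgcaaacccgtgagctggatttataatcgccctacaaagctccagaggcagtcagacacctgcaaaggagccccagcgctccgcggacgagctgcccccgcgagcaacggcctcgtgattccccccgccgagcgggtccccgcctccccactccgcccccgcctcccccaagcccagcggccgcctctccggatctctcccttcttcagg
Gad2: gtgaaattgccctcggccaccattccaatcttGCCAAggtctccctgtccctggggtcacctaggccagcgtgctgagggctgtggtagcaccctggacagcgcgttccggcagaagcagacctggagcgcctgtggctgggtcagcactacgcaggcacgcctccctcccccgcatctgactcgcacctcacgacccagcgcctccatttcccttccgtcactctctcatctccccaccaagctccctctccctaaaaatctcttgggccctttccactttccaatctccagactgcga
Slc32a1: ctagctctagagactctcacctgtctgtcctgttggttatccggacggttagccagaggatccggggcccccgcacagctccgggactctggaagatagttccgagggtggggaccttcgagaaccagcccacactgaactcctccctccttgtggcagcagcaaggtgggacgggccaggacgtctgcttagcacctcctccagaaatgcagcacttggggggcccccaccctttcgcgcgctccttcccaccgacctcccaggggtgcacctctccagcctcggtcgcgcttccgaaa
Slc6a5: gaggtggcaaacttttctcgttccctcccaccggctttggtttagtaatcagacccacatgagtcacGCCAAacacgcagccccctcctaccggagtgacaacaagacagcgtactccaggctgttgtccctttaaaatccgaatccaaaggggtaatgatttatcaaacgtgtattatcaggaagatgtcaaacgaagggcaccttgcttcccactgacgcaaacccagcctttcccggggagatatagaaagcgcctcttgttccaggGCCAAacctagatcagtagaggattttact
No core was found in the windows of *Gad1* and *Slc32a1*. All 4 windows began after the first position given here for the gene. Any start site farther upstream was not searched. Counted from the start site as 0, it lay at -218 in that of *Gad2*, and at -183 and 20 in that of *Slc6a5*. A match of these letters is a description of the sequence and not a measured binding site.

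The neuronal glycine transporter gene did not pass the test. *Slc6a5* (TC0700000907.mm.1, chromosome 7, 49906984 to 49963864) encodes GlyT2, which recovers glycine into glycinergic terminals and marks those neurons. It had 8.59, 8.70, 8.63 and 8.71 in *Nfix*-/- cords, against 8.54, 8.74, 8.56 and 8.44 in wild-type cords. The single wild-type array above the *Nfix*-/- range was replicate 2. The log2 difference for *Slc6a5* was 0.09 (interval -0.066 to 0.25, adjusted p = 0.381), equal to the median of the bright clusters, and it was 0.15 without wild-type replicate 2 (adjusted p = 0.0963) and 0.047 without wild-type replicate 4 (0.689).

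*Slc6a9* (TC0400004191.mm.1, chromosome 4, 117835258 to 117869305) encodes GlyT1, the glycine transporter of astrocytes and radial glia. Its log2 values were 8.80, 8.88, 8.82 and 8.74 in *Nfix*-/- cords, against 8.83, 8.76, 8.82 and 8.73 in wild-type cords. The groups interleaved, with a log2 difference of 0.024 (interval -0.088 to 0.14, adjusted p = 0.769), and of -0.00073 to 0.047 with 1 array left out, the extremes without *Nfix*-/- replicates 2 and 4. A second and dimmer cluster with the same symbol, TC0400004192.mm.1, was lower in every *Nfix*-/- array. It had 4.67, 4.48, 4.50 and 4.47 in *Nfix*-/- cords, against 5.47, 4.90, 5.54 and 5.18 in wild-type cords, -0.74 on the log2 scale (interval -1.05 to -0.43, limma adjusted p = 0.00721). The fold was 0.598. This cluster was below background on all 8 arrays, and the place of its probes in the gene was not analysed here. Its difference passed under each of the alternatives in which it was tested, at -0.87 to -0.65. With the mean of both clusters in place of the brighter one, the value of *Slc6a9* was -0.36 (adjusted p = 0.0179). This mean takes its difference from the dimmer cluster and is not a separate result. The call for this symbol thus depended on the cluster taken. Start windows of RefSeq lay at 3 places for *Slc6a9*, of which the first held the core once, the second not and the last at 2 positions.

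*Slc6a11* (TC0600001266.mm.1, chromosome 6, 114131241 to 114249886) encodes GAT3, the GABA transporter known mainly from astrocytes. It had 9.89, 9.95, 10.02 and 10.06 in *Nfix*-/- cords, against 10.17, 10.20, 9.99 and 9.99 in wild-type cords. Wild-type replicates 1 and 2 were above all *Nfix*-/- arrays, and wild-type replicates 3 and 4 lay inside the *Nfix*-/- range. The log2 difference for *Slc6a11* was -0.11 (interval -0.27 to 0.046, adjusted p = 0.281). Relative to other genes of its brightness it was lower past the test, at -0.23 after cyclic loess (interval -0.37 to -0.088, adjusted p = 0.0322) and -0.21 after quantile normalization (adjusted p = 0.0315). Among clusters above background on all 8 arrays, 2.81% were higher and 2.25% lower after cyclic loess, and 2.18% higher and 1.36% lower after quantile normalization. It did not pass with the replicate number as a block after cyclic loess (adjusted p = 0.102), and after subtraction of each array's median it was -0.082 (adjusted p = 0.4). None of 7 astrocyte markers measured passed the test, and the mean of that list was 7.32 to 7.40 in *Nfix*-/- and 7.32 to 7.35 in wild-type arrays. Whether numbers of glial cells had a part in the *Slc6a11* value was not tested.

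*Abat* (TC1600000089.mm.1, chromosome 16, 8513429 to 8621568) encodes GABA transaminase, the mitochondrial enzyme that degrades GABA. Its log2 values were 9.48, 9.48, 9.49 and 9.50 in *Nfix*-/- cords, against 9.35, 9.41, 9.38 and 9.39 in wild-type cords. The 4 *Nfix*-/- values had an SD of 0.00831 and were separated from the wild-type values by 0.0721. The difference for *Abat* on the log2 scale was 0.11 (interval 0.019 to 0.2, adjusted p = 0.0803), close to the 0.09 of the bright clusters. It passed by the unmoderated one-way comparison that the methods name (adjusted p = 0.00603) and under the same 4 settings in which *Slc32a1* passed (0.028 to 0.0487). After cyclic loess it was -0.0015 (interval -0.093 to 0.09, adjusted p = 0.985).

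The cation-chloride cotransporters held the only call. *Slc12a2* (TC1800000583.mm.1, on chromosome 18) encodes NKCC1, the chloride importer, which is also made by progenitors and cells outside the neural lineages. It had 7.80, 7.94, 7.92 and 7.94 in *Nfix*-/- cords, against 7.70, 7.76, 7.68 and 7.80 in wild-type cords. *Nfix*-/- replicate 1 and wild-type replicate 4 differed by only 0.00564, so the groups were barely separate. On the log2 scale *Slc12a2* was higher by 0.17 (standard error 0.0517, interval 0.05 to 0.29, adjusted p = 0.0498), a fold of 1.12. It lost the call when any array other than *Nfix*-/- replicate 1 was left out, with differences of 0.15 to 0.20 and adjusted p of 0.0336 to 0.122 over the 8 omissions, and it was 0.086 after cyclic loess (adjusted p = 0.273). Without the 2 arrays of high negative controls it was 0.16 (adjusted p = 0.10). Whether the cell types whose markers were called had a part in the *Slc12a2* value was not tested. *Slc12a5* (TC0200002543.mm.1, chromosome 2, 164960846 to 164999731) encodes KCC2, the neuronal chloride exporter. Its log2 values were 8.68, 8.76, 8.80 and 8.71 in *Nfix*-/- cords, against 8.68, 8.79, 8.61 and 8.56 in wild-type cords. All *Nfix*-/- values lay within the wild-type range or less than a wild-type SD above it. For *Slc12a5* the difference on the log2 scale was 0.077 (interval -0.062 to 0.22, adjusted p = 0.403). It was 0.12 without wild-type replicate 2 (adjusted p = 0.149), 0.042 without wild-type replicate 4 (0.698) and 0.13 without the 2 arrays of high negative controls (0.154).

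**Figure D2:**
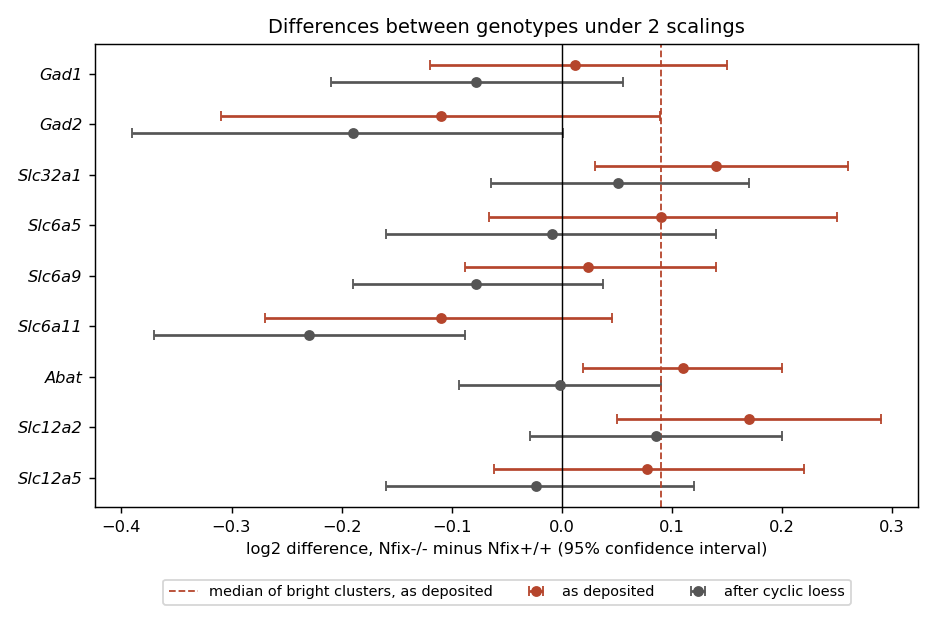
Log2 difference, *Nfix*-/- minus wild-type, for each of the 9 genes, with 95% confidence intervals from limma, from the values as deposited (upper point of each gene) and after cyclic loess (lower point); the solid line is 0 and the dashed line the median of the bright clusters as deposited, 0.09. All 9 differences moved down after cyclic loess, where 7 of 9 were below 0 and only the interval of *Slc6a11* excluded 0.

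The direction of the 9 genes as a whole depended on scaling. Bright clusters as a class were higher in *Nfix*-/- cords as deposited, with a median of 0.09, and at -0.006 after cyclic loess. The median of the 9 genes moved with them, to -0.023 after cyclic loess and -0.019 after quantile normalization, and was 0.11 after median scaling, when that of the bright clusters was 0.12. Signs of *Gad1*, *Slc6a5*, *Slc6a9*, *Abat* and *Slc12a5* turned after cyclic loess and quantile normalization, while *Slc32a1* and *Slc12a2* stayed positive and *Gad2* and *Slc6a11* negative in each of these scalings.

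Within-array differences, in which the scaling of a whole array cancels, were compared for 3 pairs of genes by two-sided exact permutation tests. They asked whether the genes of a pair changed unequally, and show no ratio of transcript numbers. *Slc12a5* minus *Slc12a2* was 0.88, 0.82, 0.88 and 0.77 in *Nfix*-/- cords, against 0.98, 1.04, 0.93 and 0.76 in wild-type cords. The mean was 0.84 ± 0.0494 in *Nfix*-/- and 0.93 ± 0.119 in wild-type (SD, n = 4 each), a difference of -0.091 (exact p = 0.257, adjusted p = 0.314 over 3 pairs). Wild-type replicate 4 was the lowest of all 8 arrays, and without it the difference was -0.15 (exact p = 0.0286 before adjustment, the smallest that 4 arrays against 3 allow). The groups overlapped through this array alone, so that p followed from the choice of the array and shows no unequal change. *Gad1* minus *Gad2* was 0.22, 0.28, 0.36 and 0.04 in *Nfix*-/- cords, against 0.16, 0.06, 0.14 and 0.05 in wild-type cords. The difference of 0.12 (exact p = 0.171, adjusted p = 0.314) rose to 0.18 without *Nfix*-/- replicate 4 (exact p = 0.0286 before adjustment). The same limit holds here, as the groups overlapped through that array alone. For each of these pairs only 1 of 8 omissions gave a p under 0.05. *Slc6a5* minus *Slc32a1*, the glycine marker against the shared vesicular transporter, averaged 0.23 ± 0.0476 in *Nfix*-/- and 0.28 ± 0.078 in wild-type cords (SD, n = 4 each), with exact p = 0.314 and adjusted p = 0.314.

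**Figure D3:**
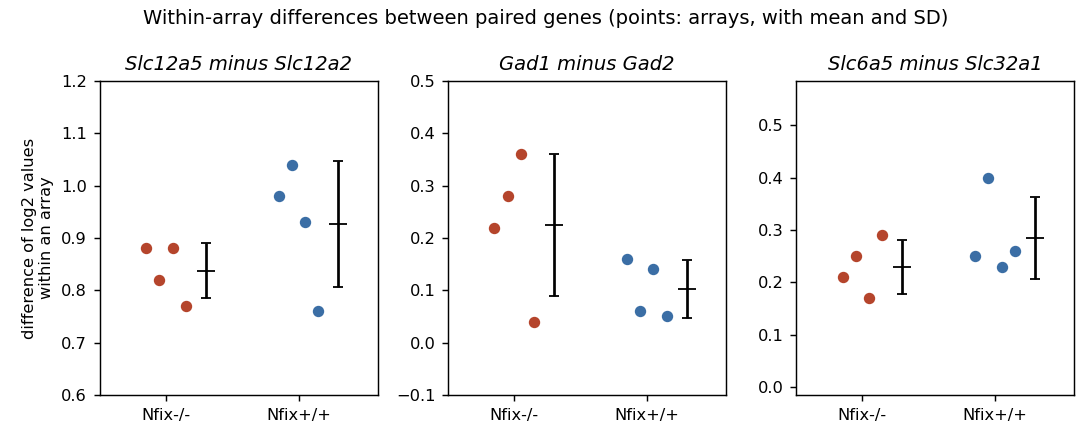
Differences of log2 values within an array for *Slc12a5* minus *Slc12a2*, *Gad1* minus *Gad2* and *Slc6a5* minus *Slc32a1*, with *Nfix*-/- arrays on the left and wild-type (*Nfix*+/+) arrays on the right; points are arrays, bars the mean and SD of 4 arrays. The groups overlap in all 3 panels, through wild-type replicate 4 in the first and *Nfix*-/- replicate 4 in the second.

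Across the arrays, with each genotype's mean removed, *Gad1* varied with *Gad2* (Pearson's r = 0.628, permutation p = 0.0399; Spearman's rho = 0.714, permutation p = 0.0799), *Slc6a5* (r = 0.882, permutation p = 0.0174; rho = 0.738, permutation p = 0.0556), *Slc12a5* (r = 0.865, permutation p = 0.0347; rho = 0.762, permutation p = 0.0799) and *Slc6a11* (r = 0.842, permutation p = 0.0451; rho = 0.929, permutation p = 0.0278). None of the 36 pairs of genes passed after adjustment over the pairs, the lowest adjusted p being 0.375 for r and 0.411 for rho. Without the 2 arrays farthest from the median of *Gad1*, r was 0.493, 0.431, 0.483 and 0.843 with these 4 genes, so it fell for *Gad2*, *Slc6a5* and *Slc12a5* but not for *Slc6a11*. With *Slc32a1*, r of *Gad1* was 0.719 (permutation p = 0.153) and rho 0.429 (permutation p = 0.399). That r was -0.042 without the same 2 arrays. Of *Slc6a9*, *Abat* and *Slc12a2*, r with *Gad1* was 0.116, 0.0851 and 0.0198. Among 7227 symbols above background on all 8 arrays, the profiles most like those of the 9 genes over the 8 centred arrays were *Dner* (r = 0.987) and *Psd3* (0.970) for *Gad1*, *BC005537* (0.987) and *Zfp955b* (0.985) for *Gad2*, *Frg1* (0.934) and *Bmp6* (0.916) for *Slc32a1*, and *Tro* (0.972) and *Acbd6* (0.966) for *Slc6a5*. For the remaining genes they were *Irs1* (0.989) and *Smndc1* (0.973) for *Slc6a9*, and *Celf4* (0.985) and *Necab1* (0.979) for *Slc6a11*. Those of *Abat* were *Sf3a3* (0.989) and *Cdc16* (0.959), and those of *Slc12a2* were *Lamc1* (0.968) and *Heatr5b* (0.958). *AW551984* (0.939) and *Mrpl3* (0.938) were nearest to *Slc12a5*. With this many symbols over so few arrays such values describe these arrays only.

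The wider pathway held few calls. Of 119 genes in 13 lists of transmitter synthesis, uptake, breakdown, chloride transport, receptors, scaffolds and neuron classes, 108 were measured. Apart from the 9 genes, 6 of 99 were higher and 2 were lower, beside 11.5% and 10.5% of all clusters. Of the 45 among them above background on all 8 arrays 2 were higher and none was lower, beside 14.1% and 0.342% of all clusters of that brightness. The counts by list below stand beside these same shares.

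Among the other genes of uptake and breakdown none passed in the main comparison. This was limma over all clusters, on the values as deposited with all 8 arrays, without array weights or a trended prior. *Slc6a13*, a GABA transporter gene strongly expressed in the meninges, had 8.55 ± 0.126 in *Nfix*-/- and 8.32 ± 0.0894 in wild-type cords (SD, n = 4 each), with a log2 difference of 0.23 (interval 0.062 to 0.40, adjusted p = 0.0568). It passed under the 4 settings in which *Slc32a1* passed (0.0364 to 0.0494) and without *Nfix*-/- replicate 1 (0.30, adjusted p = 0.0183), and was 0.14 after cyclic loess (adjusted p = 0.224). The mean of the 11 meningeal and fibroblast markers, of which 4 were higher, was 8.20 to 8.31 in *Nfix*-/- and 8.04 to 8.15 in wild-type arrays, and its part in *Slc6a13* was not tested. *Slc6a12*, the betaine and GABA transporter gene, was at 0.11 (adjusted p = 0.161), below background on all 8 arrays. *Aldh9a1*, which acts in a side route of GABA synthesis, was at 0.058 (adjusted p = 0.447), above background on only 2 arrays. Of 6 genes that make or cleave glycine none passed in the main comparison. *Gldc*, the decarboxylase of the glycine cleavage system, was at 0.13 (adjusted p = 0.0745), below background on all 8 arrays. *Dld*, its dehydrogenase, was at 0.12 (adjusted p = 0.179).

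Of the 8 cation-chloride cotransporters measured, *Slc12a2* alone was called, and 5 lay below background on all 8 arrays. In the list of cotransporter kinases and partners, 1 of 9 was higher. *Neto2*, which encodes an auxiliary subunit of kainate receptors that also binds KCC2, had 8.17 ± 0.162 in *Nfix*-/- and 7.88 ± 0.0917 in wild-type cords (SD, n = 4 each), 0.30 higher on the log2 scale (interval 0.099 to 0.50, adjusted p = 0.0413). *Neto2* lies on chromosome 8, 0.835 Mb from *Nfix*, and whether this place had a part in its value was not tested. All 9 genes of that list had positive differences, with a median of 0.088, close to that of the bright clusters, and *Neto2* no longer passed after cyclic loess (0.21, adjusted p = 0.12). Of 13 anion exchangers, chloride channels and carbonic anhydrase genes, *Car10*, which encodes a carbonic anhydrase relative without catalytic activity, was higher at 0.22 (standard error 0.0567, adjusted p = 0.0267), and was 0.10 after cyclic loess (adjusted p = 0.175).

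**Figure D4:**
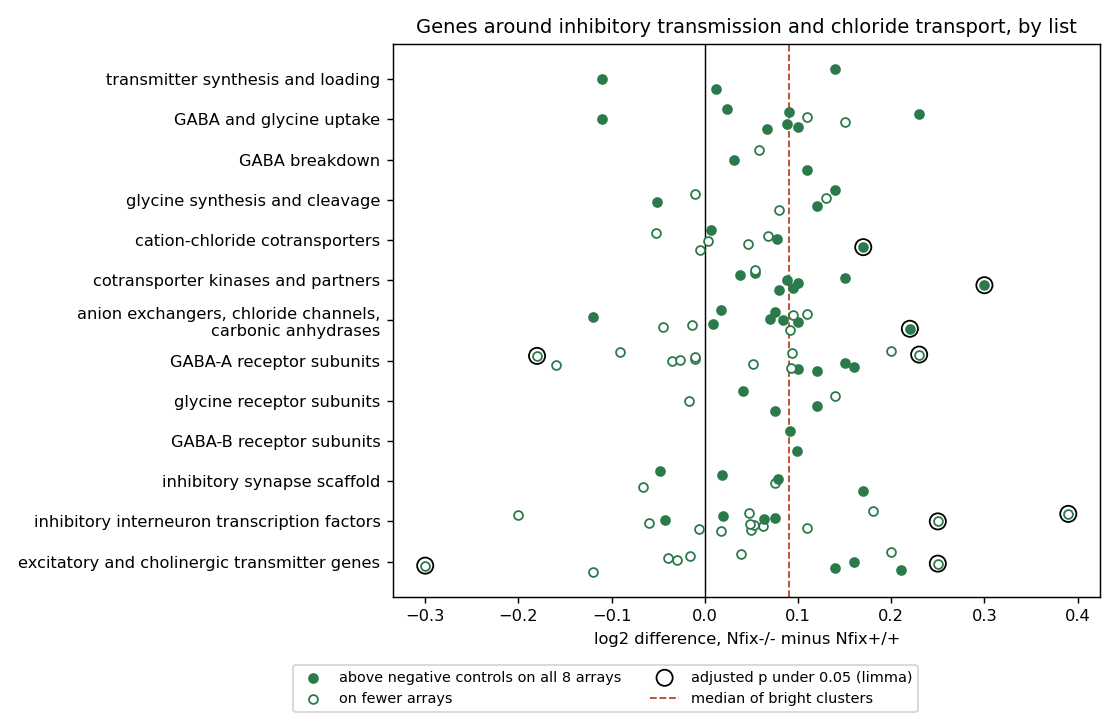
Log2 difference, *Nfix*-/- minus wild-type, of each measured gene of the 13 lists; filled points lay above background on all 8 arrays, open points on fewer, rings mark an adjusted p under 0.05 from limma, and the dashed line is the median of the bright clusters, 0.09. Of the 9 ringed genes *Slc12a2*, *Neto2* and *Car10* are filled, and the other 6 are open.

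Receptor subunits gave 2 calls, both below background on all 8 arrays, beside 11.5% higher and 10.5% lower among all clusters. Of 16 GABA-A subunit genes, *Gabrq* was higher at 0.23 (6.10 ± 0.0512 in *Nfix*-/- and 5.88 ± 0.0469 in wild-type, SD, n = 4 each, adjusted p = 0.0116) and *Gabrp* was lower at -0.18 (3.71 ± 0.0531 in *Nfix*-/- and 3.89 ± 0.0749 in wild-type, adjusted p = 0.042). The 4 GABA-A genes above background on all arrays were not called. None of 5 glycine receptor subunits passed, with *Glra4*, below background on all 8 arrays, at 0.14 (adjusted p = 0.129) and at 0.18 after cyclic loess, where it passed (0.0436). *Glra2*, the alpha subunit known from embryonic neurons, was at 0.12 (adjusted p = 0.333), but 0.062 without *Nfix*-/- replicate 4 and 0.068 without wild-type replicate 3. Nor did the 2 GABA-B subunits, *Gabbr1* at 0.099 (adjusted p = 0.115) and *Gabbr2* at 0.091 (adjusted p = 0.271). Of 6 scaffold genes of inhibitory synapses none passed in the main comparison. *Gphn*, which encodes gephyrin, the anchor of glycine and GABA-A receptors, was at 0.17 (interval 0.025 to 0.31, adjusted p = 0.0899). *Gphn* passed without wild-type replicate 2 (0.22, adjusted p = 0.0237), without the 2 arrays of high negative controls (0.20, 0.0372), with array weights (0.20, 0.0212) and after median scaling (0.20, 0.0411), and was 0.064 after cyclic loess (0.507). *Iqsec3* was at 0.078 (adjusted p = 0.206).

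Transcription factors of inhibitory interneurons gave 2 calls of 17, both below background on all 8 arrays, beside 11.5% higher among all clusters. *Ptf1a*, which drives the inhibitory fate of dorsal neurons, was higher at 0.39 (4.86 ± 0.0647 in *Nfix*-/- and 4.47 ± 0.191 in wild-type, SD, n = 4 each, adjusted p = 0.0199), and *Gsx2*, a factor of dorsal progenitors, at 0.25 (adjusted p = 0.0255). Of the 12 genes of excitatory and cholinergic neurons listed for comparison, 11 were measured. *Sim1*, a factor of ventral excitatory interneurons, was higher at 0.25 (adjusted p = 0.0243) and *Mnx1*, a motor neuron factor, lower at -0.30 (adjusted p = 0.031), both below background on all 8 arrays. The median difference was 0.05 for the inhibitory factors and 0.039 for the excitatory and cholinergic genes, beside 0.025 over all clusters. Of the 8 calls outside the 9 genes, *Gabrq* alone passed whichever array was left out. *Ptf1a* lost its call without *Nfix*-/- replicate 1 or 3 (adjusted p = 0.0518 and 0.0535). *Gsx2* and *Sim1* each passed in 4 of 8 omissions, *Gsx2* failing without replicate 1 or 4 of either genotype (adjusted p up to 0.0643) and *Sim1* without *Nfix*-/- replicate 1 or 2 or wild-type replicate 1 or 4 (up to 0.0675). *Mnx1* passed only without *Nfix*-/- replicate 1 or 2 or wild-type replicate 2 (otherwise up to 0.0786). *Neto2* passed only without *Nfix*-/- replicate 1 or wild-type replicate 2 (otherwise up to 0.103), *Car10* only without replicate 1 of either genotype (up to 0.07), and *Gabrp* only without *Nfix*-/- replicate 1 or wild-type replicate 3 (up to 0.109). Without the 2 arrays of high negative controls together, *Car10* (adjusted p = 0.082), *Gabrp* (0.102) and *Gsx2* (0.0575) lost their calls and the other 5 passed.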

How the data were processed

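Expression was measured in 8 whole spinal cords, 4 *Nfix*-/- and 4 wild-type, on Mouse Transcriptome Arrays. The authors ran SST-RMA on the 8 scanner files jointly, per gene, in Affymetrix Expression Console, with genome version mm10, and deposited 1 log2 value per cluster and array. The deposited arrays were not fully alike, with bright-cluster medians of 8.43 to 8.48 in *Nfix*-/- and 8.34 to 8.38 in wild-type, so other scalings were tried. The values were used as deposited. Of 72688 rows, 6732 control probe sets were left out, and 65956 clusters were tested, 30638 of them with 1 symbol. Symbols were updated through Entrez identifiers to RefSeq (GRCm38.p6). Genotypes were compared with limma 3.58.1 in R 4.3.3 (lmFit, eBayes), unpaired as in the study, with Benjamini-Hochberg adjustment over all clusters, and called at an adjusted p under 0.05. In simulated data the fit recovered 24% of 1.3-fold, 50% of 1.5-fold and 90% of 2-fold changes (50 of each), with 3 false calls. Far fewer clusters were changed there than were called in the real arrays (11.5% higher and 10.5% lower), and the noise was independent between clusters. The adjustment was therefore stricter in the simulation, and its shares do not give the power of the real comparison. Folds as small as those of the 9 genes were not simulated. The genes named are the 9 genes, *Nfix* and, of each list, up to 4 genes past the test or the 2 with the lowest p. The genes and lists were chosen with earlier results of these data known. The labels call the replicates biological and do not say which shared a litter. The number of arrays limits the precision.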

Additional observations from a re-analysis of the deposited data

Results flagged for a closer look

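In 3 of 58 groups of 4 arrays examined, 1 array lay far from the other 3. By chance about 1 group in 20 would do so. Each time the array was *Nfix*-/- replicate 1. *Slc12a2* was 7.80 there (others 7.92 to 7.94), *Slc6a13* 8.36 (others 8.61 to 8.63) and *Gabbr2* 9.41 (others 9.55 to 9.56). Without that array the differences, *Nfix*-/- minus wild-type, were 0.20 for *Slc12a2* (adjusted p = 0.0336 from limma, against 0.0498 with all arrays), 0.30 for *Slc6a13* (0.0183, against 0.0568) and 0.13 for *Gabbr2* (0.142, against 0.271).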

How the results depend on the processing

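The median scaling over bright clusters, cyclic loess with the block and the omission of 2 arrays together were chosen after seeing the data. Of the 9 genes 1 was higher as deposited, 0 under the replicate block, median scaling, quantile normalization, cyclic loess, cyclic loess with the block, bright-cluster scaling and without both arrays, 2 by the methods' unmoderated test, 3 with the trended prior, array weights or dim or unnamed clusters left out, and 0 to 1 when 1 array was left out. None was lower, but 1 under quantile normalization and cyclic loess (*Slc6a11*) and 1 with clusters averaged (*Slc6a9*), and 0 with any 1 array left out. Of the pathway genes 7 were higher, against 4 under the block, 14 by the unmoderated test, 12 with the trended prior, 14 with array weights, 3 after quantile normalization, 14 with unnamed clusters left out, 3 after cyclic loess with the block, 0 after bright-cluster scaling, and 3 to 6 with 1 array left out. Of them 2 were lower, against 0 under the block, 1 by the unmoderated test, 1 with the trended prior, 4 with array weights, 0 after median scaling, 1 after quantile normalization, 0 with dim clusters left out, 1 after cyclic loess with the block, 4 after bright-cluster scaling, 1 without both arrays, and 0 to 3 with 1 array left out. *Gabrq* passed in all 8 omissions of an array.

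Signs turned, in the order quantile normalization, cyclic loess (the same value with the block) and bright-cluster scaling, for *Gad1* (-0.071, -0.078, -0.082), *Slc6a5* (-0.0061, -0.0086, -0.003), *Slc6a9* (-0.074, -0.078, -0.069) and *Slc12a5* (-0.019, -0.023, -0.016), and likewise for *Gabbr2* (-0.018, -0.019, -0.0017) and *Iqsec3* (-0.025, -0.024, -0.015). In the first 2 of these settings they turned for *Abat* (-0.0081, -0.0015), *Glra2* (-0.012, -0.0035) and *Gabbr1* (-0.015, -0.016), and in the last 2 for *Aldh9a1* (-0.0073, -0.035). *Slc6a9* was -0.36 with its clusters averaged, which takes in the dimmer cluster below background. With 1 array left out *Gad1* was -0.029 to 0.051 and *Slc6a9* -0.00073 to 0.047. The cause was not tested. Pair differences with 1 array left out were -0.15 to -0.055 for *Slc12a5* minus *Slc12a2*, 0.075 to 0.18 for *Gad1* minus *Gad2* and -0.073 to -0.016 for *Slc6a5* minus *Slc32a1*.

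Deviations of same-numbered arrays correlated at 0.470, -0.151, 0.0401 and -0.0755. Those of differently numbered arrays ran from -0.63 (*Nfix*-/- replicate 1 with wild-type replicate 2) to 0.66 (*Nfix*-/- replicate 4 with wild-type replicate 2). The numbers were not taken as pairs, as the study's comparison was unpaired. With the replicate block *Slc12a2* had an adjusted p of 0.0741.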
